A study of Mus musculus with 65 samples.

Results

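The 10 genes of the Sox family that act in neural lineages considered here, Sox1, Sox2, Sox3, Sox4, Sox5, Sox6, Sox8, Sox9, Sox10 and Sox11, were followed across every group of an RNA-seq series on primary neural stem cells of the mouse subventricular zone. They were chosen by symbol, through the Ensembl identifiers of the count table, and make up 10 of its 31057 features. All 10 were found, and all 10 passed the filter on low counts in every comparison. The cells came from 4 old mice of 25 months and 5 young mice of 3 to 4 months, and each animal gave its own libraries. Every group, the untreated ones included, carries the iOSKM genotype, in which doxycycline switches on Oct4, Sox2, Klf4 and Myc from a single cassette. Old cells with doxycycline at 2 µg per ml were read at 6, 18 and 48 h in differentiation medium and at 6, 18 and 48 h in stem cell medium. Untreated old cells were read at 6, 18 and 48 h in differentiation medium and at 18 h in stem cell medium. Young cells with doxycycline were read at 18 h in stem cell medium. Untreated young cells were read at 6, 18 and 48 h in differentiation medium and at 18 h in stem cell medium. These 15 groups hold 4 libraries each for old and 5 each for young cells, 65 in all. Stem cell medium contains EGF and bFGF. Differentiation medium lacks both and replaced it 18 h after plating. No untreated stem cell group at 6 or 48 h is among the samples, so the untreated differentiation groups were all set against stem cell medium at 18 h.

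Sox proteins bind DNA through an HMG box and fall into subfamilies by the sequence of that box. The SoxB1 members Sox1, Sox2 and Sox3 mark neural stem and progenitor cells and hold back neuronal differentiation. The SoxC members Sox4 and Sox11 act in neuronal precursors and young neurons, the SoxD members Sox5 and Sox6 carry no transactivation domain and modulate other Sox factors, and the SoxE members Sox8, Sox9 and Sox10 act in glia, Sox9 in astrocytes and stem cells and Sox10 in the oligodendrocyte lineage. Sox2 is also a factor of the induced cassette.

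Libraries held 56.5 to 116.8 M counts (median 86.7 M), and levels are given as CPM (counts per M counts of the library) after TMM scaling. Nes, the intermediate filament gene of neural stem cells, averaged 1233 CPM in untreated old and 1312 CPM in untreated young stem cell medium. Of the markers of other cell types, the microglial genes Cx3cr1, C1qa and Tyrobp stayed at or below 0.0563 CPM in all 65 libraries and the endothelial gene Cldn5 at or below 0.0903 CPM. Other genes of the same marker lists were present: the microglial genes Csf1r at 4.23 to 11.2 CPM and P2ry12 at 0.136 to 3.08 CPM, and the endothelial genes Flt1 at 0.291 to 20.4 CPM and Kdr at 1.07 to 10.2 CPM. The ependymal gene Foxj1 was present at 7.30 to 71.6 CPM, while the ependymal genes Tmem212 and Pifo stayed at or below 0.0316 CPM. In these bulk libraries a smaller number of cells of a type and less RNA per cell cannot be told apart. The induction itself was read from Pou5f1, which encodes Oct4: at 18 h in stem cell medium it averaged 0.401 ± 0.13 CPM in old cells with doxycycline and 0.16 ± 0.0588 CPM in untreated old cells (SD, n = 4 each), and 0.786 ± 0.354 against 0.205 ± 0.135 CPM in young cells (n = 5 each). The libraries overlapped in old cells (0.206 to 0.476 against 0.079 to 0.22 CPM) and not in young cells. In old differentiation at 6, 18 and 48 h it averaged 0.327, 0.267 and 0.335 CPM with doxycycline. Without doxycycline the averages were 0.0625, 0.124 and 0.186 CPM, and the libraries overlapped at 48 h. These low levels were not tested. Reads of the cassette Sox2 and of the endogenous gene share 1 row of the table, and the 2A linker sequences of the cassette held at most 4 counts in any library.

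The members lie on 10 different chromosomes of the mm10 build (GRCm38, annotation GENCODE M21), and 5 of them have a single exon. The SoxB1 genes are Sox1 (ENSMUSG00000096014) at chr8:12395295-12400126 on the plus strand, Sox2 (ENSMUSG00000074637) at chr3:34650405-34652461 on the plus strand and Sox3 (ENSMUSG00000045179) at chrX:60891366-60893430 on the minus strand. The SoxC genes are Sox4 (ENSMUSG00000076431) at chr13:28948919-28953713 and Sox11 (ENSMUSG00000063632) at chr12:27334264-27342574, both on the minus strand. These 5 are the genes with 1 exon. The SoxD genes Sox5 (ENSMUSG00000041540, chr6:143828425-144781977) and Sox6 (ENSMUSG00000051910, chr7:115470872-116038796) lie on the minus strand with 25 merged exons each. The SoxE genes are Sox8 (ENSMUSG00000024176) at chr17:25565892-25570686 on the minus strand with 3 exons, Sox9 (ENSMUSG00000000567) at chr11:112782224-112787760 on the plus strand with 3, and Sox10 (ENSMUSG00000033006) at chr15:79154908-79165240 on the minus strand with 5. A long noncoding RNA on the opposite strand, Gm26735, shares 2616 exon bases with Sox4, or 54.6% of its exons. Gm26735 counts ran at 57.4% to 63.5% of Sox4 counts in the 65 libraries, and their log2 counts correlated at r = 0.9996, so reads of the pair cannot be told apart here. The antisense gene Sox5os1 covers 9.25% of the Sox5 exons and held 1.83% to 3.42% of the counts of Sox5. The antisense gene 2810468N07Rik covers 10.6% of the Sox8 exons and was not analysed here.

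Sequence upstream of the start was taken from a table of RefSeq windows (GRCm38.p6) that matched 7 members, Sox1, Sox2, Sox4, Sox5, Sox6, Sox8 and Sox11, in 12 windows of 250 bases. Windows of Sox3, Sox9 and Sox10 were not analysed here. The windows of 4 members are shown because the results turn on these genes: Sox2 is the cassette factor, Sox4 and Sox8 moved together, and Sox11 moved the other way. They run 5′ to 3′ on the gene's own strand up to the base before the RefSeq start. For Sox2, Sox4 and Sox11 that start differs from the GENCODE coordinates above, and the Sox4 window reaches into the printed gene. Capitals mark a Sox core motif (ACAAAG or ACAATG, both strands) or a CCAAT motif (both strands). Sox2 is chr3:34649745-34649994 on the plus strand, and Sox4 (chr13:28953700-28953949), Sox8 (chr17:25570687-25570936) and Sox11 (chr12:27342719-27342968) are on the minus strand.
Sox2: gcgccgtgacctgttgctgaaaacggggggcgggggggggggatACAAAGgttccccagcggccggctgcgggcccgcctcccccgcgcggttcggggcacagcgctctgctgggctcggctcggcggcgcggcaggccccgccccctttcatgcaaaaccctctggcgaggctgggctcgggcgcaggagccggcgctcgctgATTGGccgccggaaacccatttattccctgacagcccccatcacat
Sox4: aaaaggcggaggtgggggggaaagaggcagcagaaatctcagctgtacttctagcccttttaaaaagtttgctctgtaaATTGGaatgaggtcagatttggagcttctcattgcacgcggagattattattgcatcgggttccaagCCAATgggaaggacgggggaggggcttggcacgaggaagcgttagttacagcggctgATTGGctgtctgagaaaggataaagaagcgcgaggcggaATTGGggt
Sox8: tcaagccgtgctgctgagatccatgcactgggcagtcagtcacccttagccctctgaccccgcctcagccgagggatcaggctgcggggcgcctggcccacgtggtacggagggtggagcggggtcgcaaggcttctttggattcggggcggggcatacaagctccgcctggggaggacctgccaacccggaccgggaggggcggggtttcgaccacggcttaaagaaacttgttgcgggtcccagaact
Sox11: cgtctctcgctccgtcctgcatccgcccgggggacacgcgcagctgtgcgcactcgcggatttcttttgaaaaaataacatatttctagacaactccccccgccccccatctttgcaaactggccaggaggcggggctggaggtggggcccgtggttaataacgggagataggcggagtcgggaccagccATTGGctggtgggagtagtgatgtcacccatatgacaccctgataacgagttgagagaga
The Sox2 window held 1 Sox core match, at position -206 counted from the start, and 1 CCAAT match. No Sox core match lay in the windows of Sox4, Sox8 and Sox11, a motif that 25.2% of 32851 RefSeq windows of this length hold. The Sox4 window held 4 CCAAT matches and the Sox11 window 1, against 33.8% of all windows with at least 1. The GC box (GGGCGG, both strands, not capitalised) had 2 matches each in the windows of Sox2, Sox8 and Sox11 and none in that of Sox4, and 32.7% of all windows hold it. GC content was 72.0% for Sox2, 65.6% for Sox8, 58.0% for Sox11 and 50.8% for Sox4, against a median of 52.4% over all windows. These matches describe letters in a window and say nothing of binding.

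Across the 15 groups, Sox10 had the widest range of the 10 genes and Sox2 the narrowest. Group means of Sox10 ran from 0.826 CPM in old cells after 6 h in stem cell medium with doxycycline to 138 CPM in old cells after 48 h of differentiation with doxycycline, a ratio of 167.5 between the highest and the lowest group. Sox6 (6.42), Sox8 (5.76), Sox4 (5.75), Sox3 (4.75) and Sox5 (4.07) followed by the same ratio, then Sox11 (3.38), Sox1 (2.03), Sox9 (1.97) and Sox2 (1.61). Old cells after 6 h in stem cell medium with doxycycline were the lowest group for Sox4, Sox5, Sox6, Sox8, Sox9 and Sox10. When the 15 groups were ordered by mean, few neighbours were apart beyond their libraries. Of 14 neighbouring pairs of groups, the libraries did not overlap in 7 for Sox8, 4 for Sox4, 3 each for Sox5, Sox6 and Sox10, 2 each for Sox2 and Sox9, and 1 each for Sox1, Sox3 and Sox11. Such gaps were not counted for the other genes, so whether these numbers are unusual is not known. For Sox4 the gaps separated, from low to high, stem cell medium at 6 h, the stem cell groups at 18 h, stem cell medium at 48 h, differentiation at 48 h, and differentiation at 6 and 18 h. For Sox10 they separated the stem cell groups at 6 and 18 h, then stem cell medium at 48 h with differentiation at 6 h, then differentiation at 18 h and at 48 h. For Sox11 the single gap lay between all 9 differentiation groups, which were lower, and all 6 stem cell groups.

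**Figure D1:**
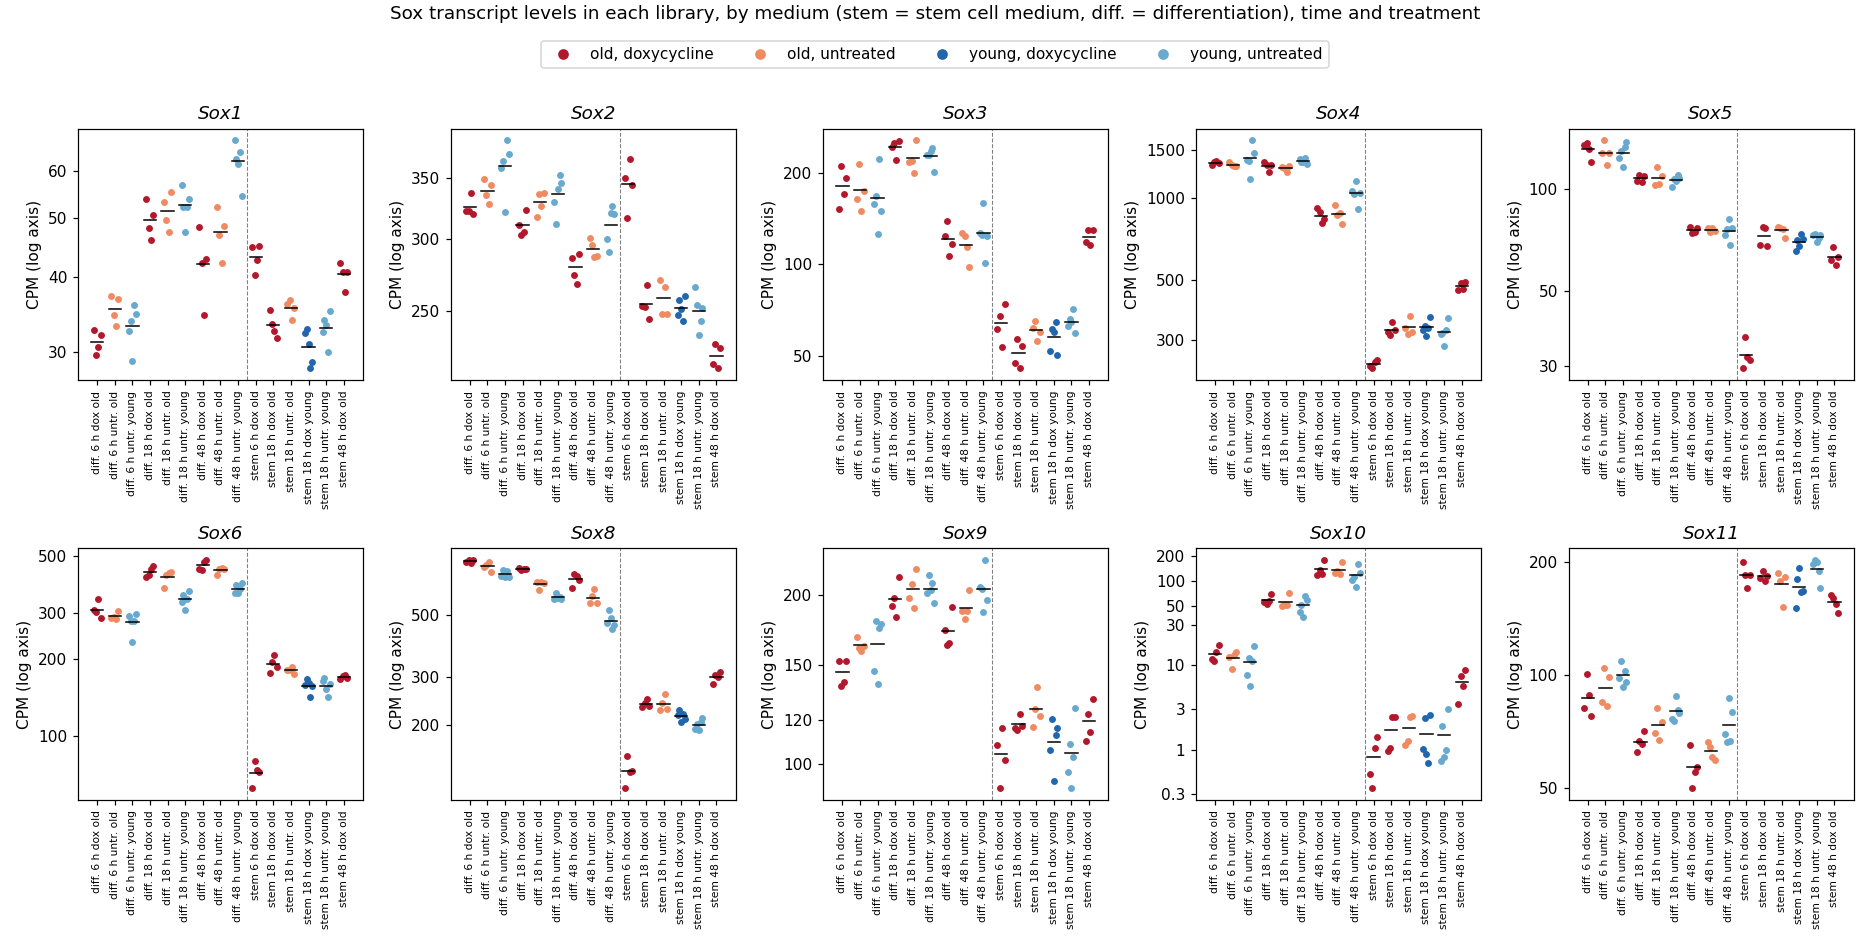
Level of each of the 10 Sox genes in every library (points, CPM on a log axis) by medium, time and treatment, with bars at group means; colours mark old cells with doxycycline, untreated old, young with doxycycline and untreated young cells. Sox10 spans 0.348 to 178.2 CPM and Sox11 is the gene whose differentiation libraries all lie below its stem cell libraries.

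The first comparison set untreated differentiation libraries against untreated stem cell libraries at 18 h and asked which Sox genes moved when EGF and bFGF were withdrawn. After 6 h, 8 members rose and 1 fell, after 18 h, 9 rose and 1 fell, and after 48 h, 8 rose and 1 fell, in old and in young cells alike. Most tested genes changed too, so the number of calls set the members apart little. In old cells 9, 10 and 9 of 10 members were called at 6, 18 and 48 h against 75.5%, 82% and 82.3% of all tested genes. In young cells 9, 10 and 9 of 10 were called against 74.9%, 82.6% and 83%. By direction, 38.2%, 41.5% and 41.9% of all tested genes rose in old cells and 37.4%, 40.5% and 40.4% fell. In young cells 38.4%, 42.3% and 41.9% rose and 36.5%, 40.3% and 41.1% fell. Whether the members' split by direction differs from that of all genes was not tested. Sox10 had the largest fold change of the 10 at each time and Sox11 was the member that fell. Calls are edgeR quasi-likelihood tests at an adjusted p under 0.05 over all tested genes. The 3 times share their stem cell libraries, so their values stand side by side and are not independent.

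Sox10, which directs oligodendrocyte precursors toward myelination, was near 0 in stem cell medium and highest at 48 h of differentiation. After 48 h of differentiation it stood at 123, 133, 122 and 170.1 CPM in the 4 untreated old libraries, against 1.13, 1.26, 2.43 and 2.5 CPM in stem cell medium. In untreated young cells the 48 h libraries held 103, 113, 85.5, 159 and 124 CPM, against 0.732, 1.9, 0.819, 0.992 and 3.06 CPM in stem cell medium. The groups were far from overlapping in both ages. The difference was called at 48 h in old (log2 fold change 6.25 ± 0.28 SE, adjusted p = 1.85e-07) and young cells (log2 fold change 6.29 ± 0.39 SE, adjusted p = 1.79e-07). It built up in steps, with means of 12.3, 56.1 and 137 CPM at 6, 18 and 48 h in old cells and 10.9, 51.9 and 117 CPM in young cells. Each step was called: from 6 to 18 h it rose by 2.19 in old and 2.26 in young cells, and from 18 to 48 h by 1.26 and 1.16 on the log2 scale. Animals differed in their Sox10 level: in stem cell medium young replicates 2 and 5 and old replicates 3 and 4 were the higher ones, and in differentiation at 48 h old replicate 4 and young replicate 4 were.

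Sox8, the SoxE member that overlaps in function with Sox10 in oligodendrocytes, peaked earlier. At 6 h of differentiation its libraries held 750.1, 757, 781 and 715 CPM in untreated old cells, against 228, 239.7, 259 and 229.5 CPM in stem cell medium. Young libraries held 695, 727, 685, 722 and 688 CPM at 6 h, against 193, 202, 192, 205 and 212 CPM in stem cell medium. All differentiation libraries lay above all stem cell libraries. Sox8 rose at 6 h (log2 fold change 1.66 ± 0.048 SE, adjusted p = 4.69e-11 in old and log2 fold change 1.82 ± 0.041 SE, adjusted p = 1.12e-12 in young cells) and then fell at each later step, with log2 differences of -0.20 and -0.18 in old and -0.27 and -0.31 in young cells. At 48 h Sox8 averages were 579 ± 32.2 CPM for old and 476 ± 28.9 CPM for young cells, above stem cell medium (log2 fold changes 1.32 and 1.28, both called).

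Sox9, a factor of astrocytes and neural stem cells, moved less. It averaged 190.2 ± 9.83 CPM at 48 h in untreated old cells and 125 ± 8.88 CPM in stem cell medium (log2 fold change 0.64 ± 0.051 SE, adjusted p = 1.90e-07). In young cells it averaged 206 ± 16.6 and 105 ± 13.5 CPM (log2 fold change 1.0 ± 0.085 SE, adjusted p = 2.91e-07). The libraries of the 2 media did not overlap at 6, 18 or 48 h in either age. From 18 to 48 h the young difference was -0.02 (adjusted p = 0.759), while old cells fell by 0.13 on the log2 scale (adjusted p = 0.0428). That old call held in 3 of the 8 fits that left out a library, and was lost (adjusted p from 0.0918 to 0.146) without 18 h replicate 2 or 4 or 48 h replicate 1, 2 or 3.

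The make-up of SoxE differed between the media. Compared per length, Sox10 made up 16.2% of the summed SoxE level at 48 h in untreated old and 15.9% in untreated young cells, against 0.554% in old and 0.529% in young stem cell medium. Sox8 per length was 4.05 times Sox9 in old and 3.10 times in young cells at 48 h, against 2.53 times in old and 2.56 times in young stem cell medium. Sox9 and Sox10 stood at nearly the same level per length at 48 h in old cells, with a Sox9 over Sox10 ratio of 1.04, against 56.9 in stem cell medium, and in young cells the ratio was 1.33, against 65.6. The summed SoxE level was 276.6 ± 9.19 CPM per kb at 48 h in untreated old cells, against 107.6 ± 6.85 in stem cell medium, and 240.8 ± 10.8 against 90.2 ± 6.05 in young cells (SD).

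Within SoxC the pair split. Sox4, needed for the survival and differentiation of neuronal precursors, stood at 1357, 1330, 1319 and 1313 CPM after 6 h of differentiation in untreated old cells, against 333, 317, 368 and 323 CPM in stem cell medium. In untreated young cells the values were 1387, 1376, 1178, 1639 and 1469 CPM at 6 h, against 316, 319, 285, 326 and 362 CPM in stem cell medium. Sox4 rose 3.98-fold in old (log2 fold change 1.99 ± 0.049 SE, adjusted p = 1.58e-11) and 4.42-fold in young cells (log2 fold change 2.14 ± 0.085 SE, adjusted p = 9.80e-11). Its level at 18 h was not called different from that at 6 h (log2 difference -0.03 in old and -0.03 in young cells, adjusted p = 0.464 and 0.705), and from 18 to 48 h it fell (log2 differences -0.58 in old and -0.41 in young cells). These counts include whatever Gm26735 contributes.

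Sox11, the SoxC factor of newborn neurons, went the other way. At 48 h it stood at 66.5, 64.5, 60.5 and 59.6 CPM in untreated old cells, against 187, 178, 152 and 182 CPM in stem cell medium. The young libraries held 69.6, 66.5, 86.7, 66.9 and 79.8 CPM at 48 h, against 198, 202, 199.6, 189 and 171 CPM in stem cell medium. No library of one medium reached into the range of the other. Sox11 fell in old (log2 fold change -1.44 ± 0.065 SE, adjusted p = 3.75e-09) and young cells (log2 fold change -1.34 ± 0.079 SE, adjusted p = 5.87e-09), and was already lower at 6 h (log2 fold changes -0.91 and -0.93). In young cells the further step from 18 to 48 h (-0.14, adjusted p = 0.161) was called with animals as blocks (log2 fold change -0.14 ± 0.037 SE, adjusted p = 0.00481), and without blocks when 48 h replicate 3 was left out (-0.20, adjusted p = 0.0163). Sox4 per length was 24.2 ± 0.963 times Sox11 at 48 h in untreated old cells, against 3.36 ± 0.557 times in stem cell medium, and 24.6 ± 2.05 against 2.93 ± 0.456 times in young cells (SD). The ratio was higher still at 18 h, at 30.6 in old and 29.8 in young cells.

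The SoxD genes rose together at first and then parted. Sox5 averaged 128 ± 8.98 CPM at 6 h of differentiation in untreated old cells and 75.5 ± 2.48 CPM in stem cell medium, and 128 ± 8.38 and 72.2 ± 1.66 CPM in young cells. It rose at 6 h (log2 fold changes 0.77 and 0.84), then fell at each step, and at 48 h its difference from stem cell medium was 0.04 in old (adjusted p = 0.237) and 0.09 in young cells (adjusted p = 0.0769). The young difference passed without 48 h replicate 4 (log2 fold change 0.12, adjusted p = 0.011). Sox6 climbed instead: at 48 h its libraries held 422, 447, 452 and 448 CPM in old cells, against 181, 181, 185 and 174 CPM in stem cell medium, and 361, 386, 359.6, 372 and 394 against 164, 168, 152, 142 and 159.7 CPM in young cells. The media did not overlap for Sox6, and the rise was called in old (log2 fold change 1.33 ± 0.035 SE, adjusted p = 1.08e-11) and young cells (log2 fold change 1.29 ± 0.048 SE, adjusted p = 1.84e-11). Per length, Sox6 was 5.66 times Sox5 at 48 h in old and 4.85 times in young cells, against 2.31 times in old and 2.11 times in young stem cell medium. The young Sox6 step from 18 to 48 h (0.12, adjusted p = 0.0418) held in 4 of 10 fits that left out a library, and was lost (adjusted p from 0.0556 to 0.103) without 18 h replicate 1, 3 or 4 or 48 h replicate 2, 4 or 5.

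Among the SoxB1 genes Sox3 moved most. Sox3, an X-linked factor of neural progenitors, peaked at 18 h with 218, 219, 199.7 and 256 CPM in untreated old cells, against 61.8, 65.3, 56.2 and 60.1 CPM in stem cell medium. Young cells held 228, 229.5, 236, 241 and 202 CPM at 18 h, against 62.6, 66.3, 64.6, 71.4 and 59.7 CPM in stem cell medium. Every differentiation library was above every stem cell library. The rise was called in old (log2 fold change 1.91 ± 0.074 SE, adjusted p = 8.96e-10) and young cells (log2 fold change 1.85 ± 0.055 SE, adjusted p = 3.71e-13), and from 18 to 48 h Sox3 fell (log2 differences -0.97 in old and -0.86 in young cells). The earlier rise from 6 to 18 h in old cells (0.36, adjusted p = 0.0283) held in 2 of 8 fits that left out a library, and was lost (adjusted p from 0.0534 to 0.0771) without 6 h replicate 1, 3 or 4 or 18 h replicate 1, 2 or 4.

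Sox2, the factor that keeps neural stem cells in a self-renewing state, had at 6 h of differentiation 349, 335, 328 and 344 CPM in untreated old cells, against 271, 248, 266 and 248 CPM in stem cell medium. Young cells had 359, 366, 321, 385 and 371 CPM at 6 h, against 266, 254, 235, 244 and 252 CPM. Sox2 was higher at 6 h of differentiation than at 18 h in stem cell medium, with no overlap, a comparison in which the hours differ. The log2 fold changes were 0.40 in old (adjusted p = 2.53e-06) and 0.54 in young cells (adjusted p = 4.79e-07) at 6 h and 0.22 and 0.35 at 48 h. From 18 to 48 h Sox2 fell (log2 differences -0.19 in old and -0.13 in young cells), and the young call was lost (adjusted p from 0.0537 to 0.0727) without 18 h replicate 3, 4 or 5 or 48 h replicate 1 or 2. From 6 to 18 h the young difference was -0.09 (adjusted p = 0.121), and it passed without 6 h replicate 3 (adjusted p = 0.0162). Per length, Sox2 made up 57.5% of the summed SoxB1 level at 18 h in old and in young cells, against 77.3% in old and 76.0% in young stem cell medium.

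Sox1, the SoxB1 factor of activated progenitors, was not called at 6 h (log2 fold changes 0.00 in old and 0.02 in young cells, adjusted p = 0.964 and 0.745). It rose at 18 h (log2 fold changes 0.57 and 0.71, both called), as the member without a call at the earlier time. From 18 to 48 h it rose further in young cells by 0.22 (adjusted p = 0.00312). In old cells the same step was -0.14 (adjusted p = 0.0848), and it was called as a fall with animals as blocks (log2 fold change -0.14 ± 0.039 SE, adjusted p = 0.00637). The blocked call was lost without replicate 3, with log2 fold changes of -0.17 to -0.11 over the fits with an animal left out. Without blocks the step was called without 48 h replicate 1 (-0.19, adjusted p = 0.0204) or 18 h replicate 3 (-0.17, adjusted p = 0.0425).

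Counted over these steps, from 6 to 18 h 8 of 10 members changed in old cells (67.7% of tested genes) and 8 in young cells (66.5%), 5 of them upward in each. From 18 to 48 h 8 changed in old cells (56.5% of tested genes), 1 upward and 7 downward, and 8 in young cells (56.9%), 3 upward and 5 downward. Of all tested genes, 34.1% rose and 33.6% fell from 6 to 18 h in old cells, and 34.0% and 32.4% in young cells. From 18 to 48 h the shares were 28.0% and 28.5% in old cells, and 27.7% and 29.2% in young cells. Sox10 was the member that rose in the last step in both ages.

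**Figure D2:**
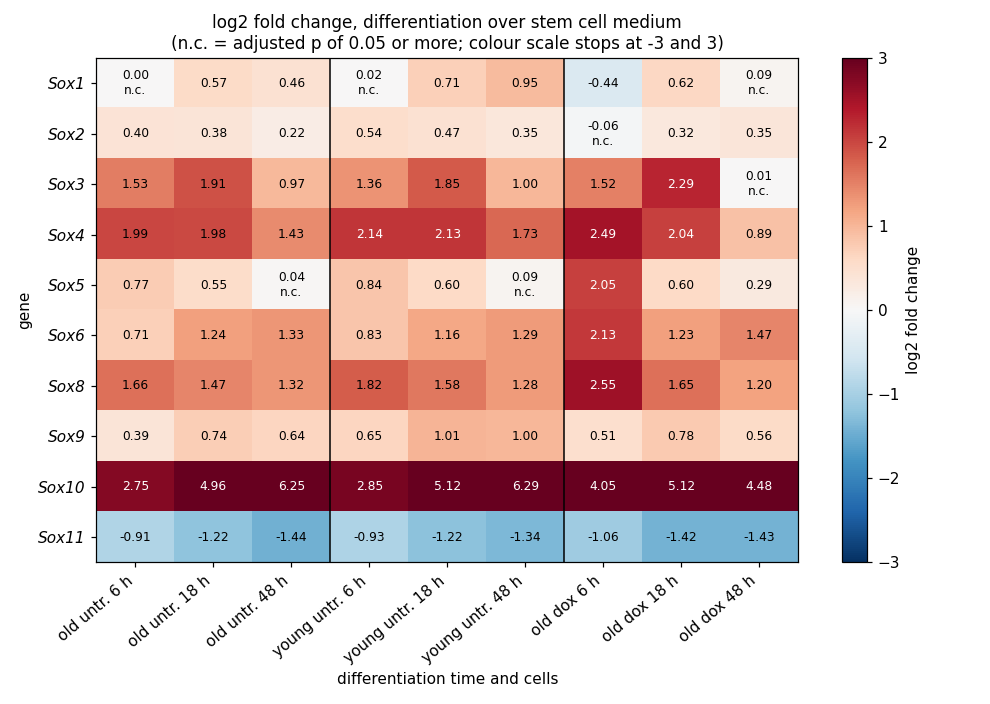
Heat map of log2 fold change, differentiation over stem cell medium, for the 10 genes (rows) and each time in untreated old, untreated young and doxycycline-treated old cells (columns). Untreated cells are set against stem cell medium at 18 h and cells with doxycycline against the same labelled hour. The mark n.c. stands for an adjusted p of 0.05 or more, and colours stop at -3 and 3. Sox10 has the largest positive value in each column and Sox11 is negative in all 9.

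**Figure D3:**
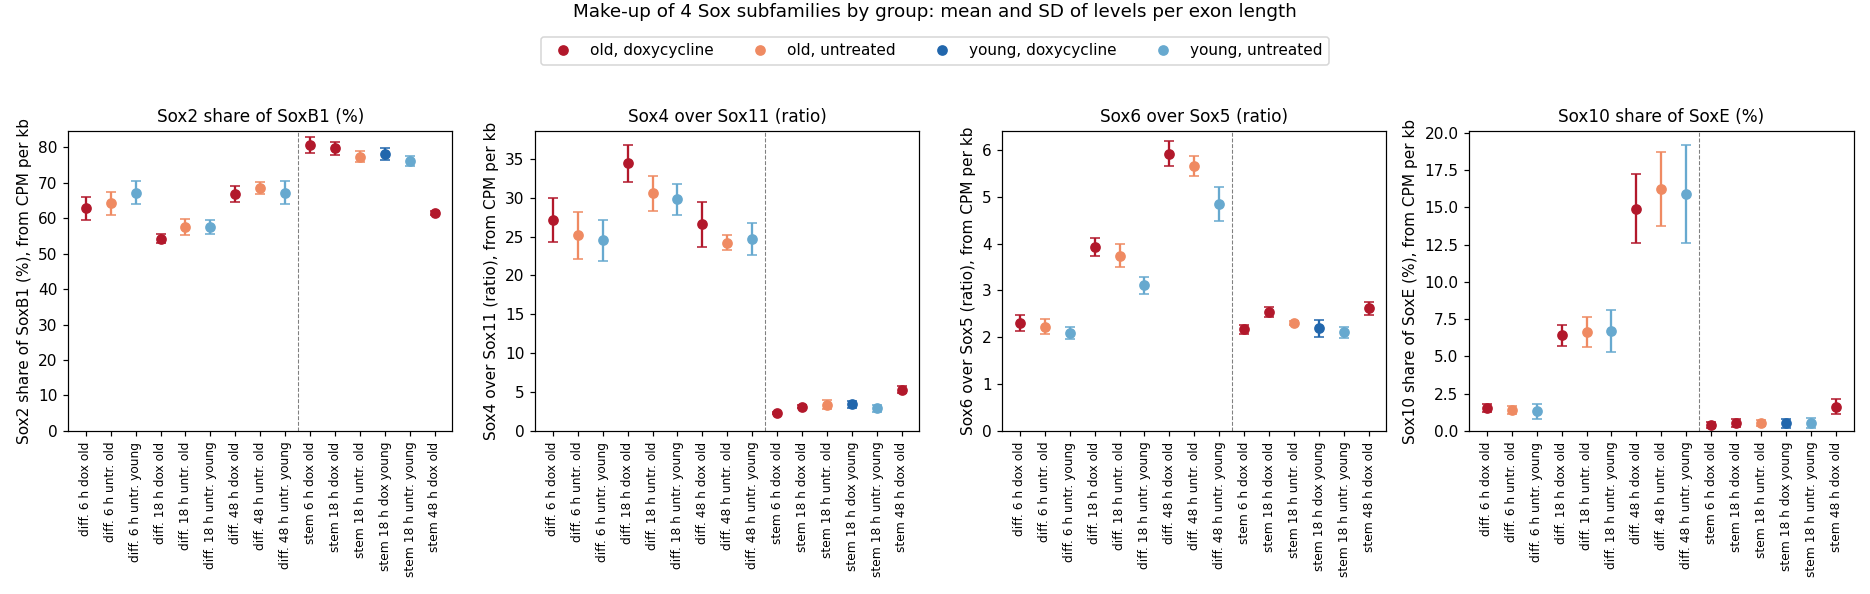
Make-up of the 4 subfamilies by group, from CPM per kb of exon (points are group means, bars the SD over 4 old or 5 young libraries), with differentiation groups left of the dashed line and stem cell groups right of it. The Sox4 over Sox11 ratio lies at 24.2 to 34.4 in differentiation groups and 2.31 to 5.31 in stem cell groups.

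Old cells with doxycycline allowed the media to be compared at the same labelled hour. Whether the stem cell hours run from plating or from the change of medium is not stated here, so time in culture may differ. Differentiation differed from stem cell medium in 9, 10 and 8 of 10 members at 6, 18 and 48 h, against 80.7%, 81.5% and 76.9% of tested genes. At 48 h Sox10 held 119, 135, 122 and 178 CPM in differentiation, against 3.48, 7.42, 5.66 and 8.82 CPM in stem cell medium (log2 fold change 4.48 ± 0.31 SE, adjusted p = 8.96e-06). Sox10 in stem cell medium was thus itself higher at 48 h than at 18 h, where it held 0.977, 1.04, 2.46 and 2.42 CPM. The gap between media was narrower than at 18 h for Sox4 (0.89 at 48 h and 2.04 at 18 h), for Sox3 (0.01, adjusted p = 0.915, and 2.29) and for Sox1 (0.09, adjusted p = 0.37, and 0.62), differences between times that were not tested. The Sox1 difference at 48 h was called without differentiation replicate 3 (0.17, adjusted p = 0.0217). Sox11 was lower in differentiation, with log2 fold changes of -1.06, -1.42 and -1.43 at 6, 18 and 48 h, all called. At 6 h Sox5 (2.05), Sox6 (2.13) and Sox8 (2.55) were further above stem cell medium than at 18 h, while Sox1 was below it (log2 fold change -0.44 ± 0.054 SE, adjusted p = 8.93e-06). Sox2 at 6 h stood at 322, 322, 337 and 319 CPM in differentiation, against 350.1, 316, 367 and 344 CPM in stem cell medium. These ranges overlap, and the difference was not called (log2 fold change -0.06, adjusted p = 0.28), but was called as lower without stem cell replicate 2 (-0.10, adjusted p = 0.0447). At 18 and 48 h Sox2 was higher in differentiation (0.32 and 0.35, both called).

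These genes also differed between hours in stem cell medium, which bears on every value set against a single stem cell hour. At 6 and 48 h this medium was read only with doxycycline. Time in the medium and time with doxycycline therefore cannot be told apart here. From 6 to 18 h with doxycycline 8 of 10 members changed (61.3% of tested genes), and from 18 to 48 h 9 of 10 did (52.3%). Sox6 stood at 176, 194, 207 and 185 CPM at 18 h, against 62.5, 79.8, 73.4 and 72.2 CPM at 6 h (log2 fold change 1.43 ± 0.07 SE, adjusted p = 2.20e-07). Sox5 (1.20), Sox8 (0.84) and Sox4 (0.44) rose as well, and Sox2 (-0.41) and Sox1 (-0.36) fell. From 18 to 48 h Sox3 rose to 118, 129.5, 115 and 129.5 CPM at 48 h, against 47.3, 57.1, 45.5 and 54.1 CPM at 18 h (log2 fold change 1.28 ± 0.071 SE, adjusted p = 6.30e-07). Sox10 rose by 1.88 (adjusted p = 0.00606) over the same interval. Its earlier difference from 6 to 18 h (1.07, adjusted p = 0.081) was called with animals as blocks (log2 fold change 1.11 ± 0.17 SE, adjusted p = 6.80e-05), and without 6 h replicate 4 (log2 fold change 1.45, adjusted p = 0.0348). The calls of Sox3 (-0.31) and Sox9 (0.20) from 6 to 18 h were lost in 4 and 3 of 8 fits that left out a library: for Sox3 (adjusted p from 0.0706 to 0.0789) without 6 h replicate 2 or 4 or 18 h replicate 1 or 3, and for Sox9 (adjusted p from 0.0504 to 0.0677) without 6 h replicate 4 or 18 h replicate 1 or 3.

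Genes that work with these factors were read as lists. The lists were chosen with earlier results of these data known, so their counts are descriptive and not independent support. Of all tested genes at 48 h, 41.9% rose and 40.4% fell in untreated old cells, and 41.9% rose and 41.1% fell in young cells. Of 20 genes of the oligodendrocyte lineage, all tested at 48 h, 16 rose and 2 fell in untreated old cells (median log2 fold change 4.13) and 16 rose and 1 fell in young cells (median 4.04), where the medians over all tested genes were 0.02 and 0.01. Gpr17, a receptor of committed oligodendrocyte precursors, stood at 2587 ± 266.5 CPM in differentiation and 3.06 ± 1.28 CPM in stem cell medium in old cells (log2 fold change 9.75), while Olig2, a factor of the whole lineage, fell by 0.80. Of 20 astrocyte genes and Sox9 partners, 16 rose and 4 fell in old (median 2.00) and in young cells (median 2.40). The astrocyte filament gene Gfap averaged 672.9 ± 396.9 CPM at 48 h in old cells, with a wide spread between animals, and 1.82 CPM in stem cell medium, and the BMP target Id3 fell by 1.43. The neuroblast list had no common direction: of 17 tested genes 8 rose and 7 fell in old cells (median -0.03), and of 18 tested 10 rose and 5 fell in young cells (median 0.21). Dcx, the microtubule gene of migrating neuroblasts, rose by 4.44 in old cells and Stmn1 fell by 1.07. Of 15 stem cell and progenitor genes 9 rose and 5 fell in old (median 0.32) and 10 rose and 5 fell in young cells (median 0.72), with Nes down by 3.58 and the endothelin receptor gene Ednrb up by 2.98 in old cells.

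Of the 10 other Sox genes in the table, 5 were tested at 48 h in each age, and 1 rose and 2 fell (medians -0.07 in old and 0.06 in young cells). Sox21, a SoxB2 gene, averaged 149.0 ± 6.15 CPM in old differentiation libraries and 74.1 CPM in stem cell medium (log2 fold change 1.05), and the SoxD gene Sox13 fell by 0.46. Sox12, the remaining SoxC gene, ran from 54.0 to 106.5 CPM over the 65 libraries, while Sry, Sox14 and Sox17 stayed at or below 0.0282 CPM. Markers of other cell types moved with the medium at low levels. At 48 h the tested microglial markers were 0 higher and 2 lower of 2 in old and in young cells, and the endothelial markers 1 higher and 3 lower of 5 in each age. The summed endothelial level was 5.74 to 6.20 CPM in old and 5.60 to 8.24 CPM in young differentiation libraries at 48 h, against 14.1 to 20.1 CPM in old and 14.0 to 24.6 CPM in young stem cell medium. The ependymal markers were 2 higher and 2 lower of 6 tested in old and of 5 tested in young cells, and the mural and fibroblast markers 1 higher and 0 lower of 2 in old cells and 1 higher and 1 lower of 3 in young cells. The part of these cells in the Sox levels was not tested.

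The second question was whether old cells differ from young cells. Sox6 and Sox8 were each higher in old cells in 4, and Sox1 and Sox4 each lower in 1, of the 5 comparisons at matched medium, time and treatment. All 5 comparisons use the same 4 old and 5 young mice, so they are not independent. The counts were 2 of 10 members in untreated stem cell medium at 18 h (5.95% of tested genes), 2 of 10 in the same medium with doxycycline (8.24%), 0 of 10 at 6 h of differentiation (1.43%), 2 of 10 at 18 h (5.19%) and 4 of 10 at 48 h (10.6%). At 6 h edgeR gave 0 members at an unadjusted p under 0.05 (2395 of 17192 tested genes) and DESeq2 called 0 members as well. The old mice include 2 females of 4 and the young 3 females of 5, and with sex as a covariate a single call was lost, that of Sox8 in stem cell medium with doxycycline.

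Sox6 at 48 h of differentiation stood at 422, 447, 452 and 448 CPM in untreated old cells, against 361, 386, 359.6, 372 and 394 CPM in untreated young cells. All 4 old libraries lay above all 5 young ones, and the difference was called (log2 fold change 0.24 ± 0.04 SE, adjusted p = 0.00512). It was also called at 18 h of differentiation (log2 fold change 0.31 ± 0.054 SE, adjusted p = 0.0071) and in stem cell medium with doxycycline (log2 fold change 0.28 ± 0.05 SE, adjusted p = 0.00677), and these 3 calls held in each of 9 fits that left out a library. In untreated stem cell medium the libraries did not overlap either, but the call (log2 fold change 0.19 ± 0.045 SE, adjusted p = 0.0327) was lost (adjusted p from 0.0523 to 0.0953) without any of the 4 old libraries or without young replicate 1 or 3.

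Sox8 at 48 h stood at 556, 589, 621 and 552 CPM in untreated old cells, against 467, 520.2, 488, 446 and 460.3 CPM in untreated young cells (log2 fold change 0.29 ± 0.05 SE, adjusted p = 0.00678). In untreated stem cell medium it held 228, 239.7, 259 and 229.5 CPM for old and 193, 202, 192, 205 and 212 CPM in young cells (log2 fold change 0.24 ± 0.043 SE, adjusted p = 0.0099). Neither pair of groups overlapped, and both calls held in all 9 fits that left out a library. The remaining calls of Sox8 were less firm. At 18 h of differentiation (log2 fold change 0.17 ± 0.039 SE, adjusted p = 0.0205) the call was lost (adjusted p from 0.0645 to 0.0857) without old replicate 3 or 4 or young replicate 1. With doxycycline in stem cell medium (log2 fold change 0.15 ± 0.038 SE, adjusted p = 0.0337) it was lost (adjusted p from 0.0564 to 0.0987) without old replicate 2, 3 or 4 or young replicate 1, 3 or 5, and with sex as a covariate (adjusted p = 0.0574).

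Sox1 at 48 h went the other way, with 52.2, 46.9, 42.2 and 48.6 CPM in untreated old cells, against 67.5, 62.8, 61.6, 64.4 and 54.5 CPM in untreated young cells. The old libraries all lay below the young ones, and the difference was called with all libraries and in 9 of 9 fits that left out a library (log2 fold change -0.38 ± 0.067 SE, adjusted p = 0.00773). Sox4 at 48 h held 948, 869, 884 and 807 CPM in untreated old and 1066, 1040, 1159, 912 and 1045 CPM in young cells, ranges that overlap (log2 fold change -0.25 ± 0.065 SE, adjusted p = 0.0315). That call was lost (adjusted p from 0.0508 to 0.0995) without old replicate 2, 3 or 4 or young replicate 1, 2, 3 or 5. At 18 h of differentiation Sox4 libraries ran from 1248 to 1316 CPM in untreated old and from 1332 to 1407 CPM in young cells. Those ranges do not overlap, but the difference was not called. Sox10 was higher in old cells by 0.23 at 48 h, a difference that did not pass (adjusted p = 0.489). Sox9 in untreated stem cell medium was not called between the ages (log2 fold change 0.24, adjusted p = 0.129), and it was without young replicate 5 (0.33, adjusted p = 0.0131) and by DESeq2 on all libraries (0.25, adjusted p = 0.042). Sox11 at 48 h was not called by edgeR (log2 fold change -0.23, adjusted p = 0.11) and was called as lower in old cells by DESeq2 (-0.23, adjusted p = 0.0345).

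The genes around them split at 48 h as well. Of 20 oligodendrocyte genes 2 were higher and 1 lower in old cells (median 0.59), where the median over all tested genes was 0.00. Among all tested genes 5.63% were higher and 5.02% lower in old cells. Gpr17 averaged 2587 ± 266.5 CPM in untreated old and 1403 ± 372.0 CPM in young cells (log2 fold change 0.89), and Nkx2-2, a factor of oligodendrocyte differentiation, was higher by 0.67, while the precursor receptor gene Pdgfra was lower (log2 fold change -0.48). Of 15 stem cell and progenitor genes 0 were higher and 8 lower (median -0.27), among them Egfr (-0.59) and the cell cycle kinase gene Cdk6 (-0.80). Of 17 neuroblast genes 3 were higher and 8 lower (median -0.30), and of 20 astrocyte genes 2 were higher and 5 lower (median -0.10). The summed oligodendrocyte list ran from 8440 to 10800 CPM in untreated old and from 5431 to 8347 CPM in young cells at 48 h, ranges that do not overlap. The part of the cultures' make-up in the Sox differences was not tested.

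Whether age changed the response to differentiation was tested as an interaction. It was called for 0 of 10 members at 6 h (0.0454% of tested genes), 0 at 18 h (0.818%) and 1 at 48 h (3.85%). At an unadjusted p under 0.05 edgeR gave 2 members at 6 h (1185 of 17619 tested genes) and 1 at 18 h (2768 of 17726). DESeq2 called 0 members at both times. The member at 48 h was Sox1, whose rise from stem cell medium was smaller in old than in young cells (interaction -0.49 ± 0.085 SE on the log2 scale, adjusted p = 0.00615). With animals as blocks the adjusted p was 0.0138, and it was 0.0577 when old replicate 3 was then left out. Sox6 and Sox8, higher in old cells in both media, gave differences between ages of 0.05 and 0.04 at 48 h (adjusted p = 0.703 and 0.812). Sox4 (-0.30, adjusted p = 0.0838) and Sox9 (-0.36, adjusted p = 0.0815) did not pass with edgeR. DESeq2 called both at 48 h, Sox4 at -0.31 (adjusted p = 0.0311) and Sox9 at -0.37 (adjusted p = 0.0244). The share of all genes that it called is not given here. With edgeR both passed without young stem cell replicate 5 (adjusted p = 0.0279 for Sox4 and 0.011 for Sox9), and Sox4 also without young 48 h replicate 4 (adjusted p = 0.0317). Sox9 passed at 18 h as well without young stem cell replicate 5 (adjusted p = 0.0386).

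**Figure D4:**
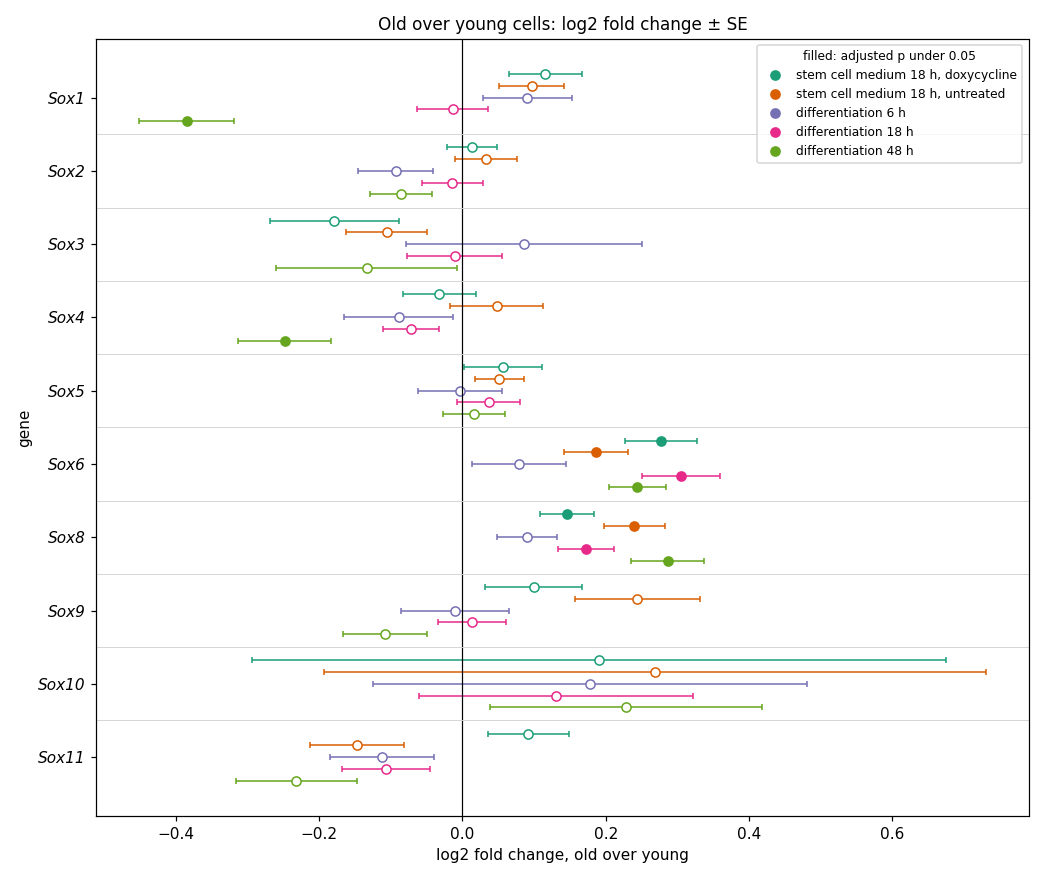
Log2 fold change of old over young cells (points, bars ± 1 SE) for the 10 genes in the 5 comparisons matched for medium, time and treatment; filled points have an adjusted p under 0.05. Sox6 and Sox8 lie to the right of 0 in all 5 comparisons, and Sox1 at 48 h of differentiation is the filled point farthest to the left, at -0.38.

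The third question was the effect of doxycycline at matched age, medium and time. These comparisons share their untreated libraries with those of medium and age above. Without animals in the model, 0 of 10 members were called in each of 5 comparisons, against 0.018% of tested genes in old stem cell medium at 18 h, 0.0361% in young stem cell medium at 18 h, and 0.0294%, 0.0118% and 0.0296% in old differentiation at 6, 18 and 48 h. At an unadjusted p under 0.05 the same edgeR fits gave 1 member in old and 3 in young stem cell medium and 2, 3 and 2 in old differentiation at 6, 18 and 48 h. Over all tested genes the numbers were 1466 of 16652 and 2403 of 16621 in old and young stem cell medium. In old differentiation they were 1507 of 17033, 1137 of 16986 and 1492 of 16889. DESeq2 called 1 member at 18 h and 1 at 48 h of differentiation, Sox8 both times, and 0 members in the other 3, where its adjusted p for Sox10 in old stem cell medium was NA. The share of all genes that DESeq2 called is not given here. With the animal as a block, which pairs each treated library with the untreated one of the same mouse, 3 members were called in old and 3 in young stem cell medium (11.2% and 13.6% of tested genes) and 2, 1 and 3 in old differentiation at 6, 18 and 48 h (3.67%, 0.883% and 4.15%). The differences were small, at most 0.25 on the log2 scale.

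Sox3 was the member called in stem cell medium in both ages. In stem cell medium at 18 h it held 47.3, 57.1, 45.5 and 54.1 CPM in old cells with doxycycline, against 61.8, 65.3, 56.2 and 60.1 CPM in untreated old cells, replicates 1 to 4 in order. In young cells it held 51.9, 61.2, 59.99, 64.8 and 50.5 CPM with doxycycline, against 62.6, 66.3, 64.6, 71.4 and 59.7 CPM without. Sox3 was lower with doxycycline in 4 of 4 old and 5 of 5 young animals, although the groups overlap. The paired fit called it in old (log2 fold change -0.25 ± 0.033 SE, adjusted p = 2.85e-05) and young cells (log2 fold change -0.17 ± 0.034 SE, adjusted p = 0.00291), and in each fit that left out an animal. In differentiation no difference of Sox3 was called: the paired log2 fold changes were 0.05, 0.12 and 0.06 at 6, 18 and 48 h, with adjusted p of 0.681, 0.12 and 0.65. At 18 h it was called as higher without replicate 4 (0.16, adjusted p = 0.0331). Without animals, the edgeR interaction of medium with doxycycline at 18 h in old cells gave 3 members at an unadjusted p under 0.05. Over all tested genes it gave 1768 of 17657. The interaction was called for 0 members (0.00566% of tested genes), and for 0 members with DESeq2. With animals as blocks it was called for 1 (0.102%), Sox3 (interaction 0.37 ± 0.065 SE on the log2 scale, adjusted p = 0.02). That call held without replicate 4 (0.45, adjusted p = 0.00518) and was lost without replicate 1, 2 or 3, with values of 0.32 to 0.45 over the 4 fits.

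Sox8 was higher with doxycycline at 18 and 48 h of differentiation. At 6 h it was not called (paired log2 fold change 0.06, adjusted p = 0.293), with overlapping groups and 3 of 4 animals higher. At 18 h it held 739, 727, 735 and 734 CPM in old cells with doxycycline, against 660.4, 618, 662 and 655 CPM in untreated old cells. At 48 h the values were 627, 707, 693 and 669 CPM with doxycycline, against 556, 589, 621 and 552 CPM without. The groups did not overlap at either time, and 4 of 4 animals were higher with doxycycline. The paired fits gave log2 fold change 0.17 ± 0.026 SE, adjusted p = 0.00617 at 18 h and log2 fold change 0.20 ± 0.034 SE, adjusted p = 0.00309 at 48 h. When an animal was left out, the 18 h call held without replicate 2 or 4 and was lost without replicate 1 or 3, with log2 fold changes of 0.16 to 0.18. The 48 h call was lost without replicate 4, with values of 0.18 to 0.22 over the 4 fits. In young stem cell medium Sox8 was called as well (log2 fold change 0.11 ± 0.029 SE, adjusted p = 0.0249), a call that held when replicate 5 was left out and not when replicate 1, 2, 3 or 4 was, with log2 fold changes of 0.09 to 0.13.

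Sox1 and Sox9 were lower with doxycycline at 6 and 48 h of differentiation, and not called at 18 h (paired log2 fold changes -0.06 and -0.06, adjusted p = 0.523 and 0.337). At 6 h Sox9 held 153, 138, 139.9 and 152 CPM in old cells with doxycycline, against 169, 161, 159.5 and 163 CPM in untreated old cells, and the groups did not overlap (log2 fold change -0.16 ± 0.03 SE, adjusted p = 0.00541). Sox1 at 6 h held 32.6, 29.7, 30.6 and 32 CPM with doxycycline, against 37.2, 34.6, 33.1 and 36.8 CPM without, also with no overlap (log2 fold change -0.18 ± 0.037 SE, adjusted p = 0.0109). At 48 h both were lower again, with log2 fold changes of -0.19 for Sox1 and -0.15 for Sox9 and 4 of 4 animals in that direction. These calls rest on all 4 animals: with an animal left out, the Sox9 call at 6 h held without replicate 3 or 4, the Sox1 call at 6 h without replicate 3, and both calls at 48 h without replicate 1 or 2, and each was lost otherwise. Over these fits Sox9 lay at -0.18 to -0.14 and Sox1 at -0.20 to -0.17 at 6 h, and Sox1 at -0.22 to -0.16 and Sox9 at -0.17 to -0.14 at 48 h. The remaining paired calls, Sox6 (0.09) and Sox9 (-0.08) in old and Sox11 (-0.17) in young stem cell medium, were lost without replicate 2, 3 or 4 for Sox6 and Sox9 and without replicate 1, 2 or 4 for Sox11. Sox9 in young stem cell medium was called as higher without replicate 5 (0.11, adjusted p = 0.0107). The log2 fold changes of Sox6 and Sox9 in old and Sox11 in young stem cell medium over the fits with an animal left out were 0.06 to 0.12, -0.11 to -0.06 and -0.20 to -0.11.

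Sox2, the member encoded by the cassette, was not called in any of these fits. It averaged 255 ± 8.96 CPM with doxycycline and 258 ± 11.8 CPM without in old stem cell medium (SD, n = 4 each), and 252 ± 6.69 and 250.2 ± 11.6 CPM in young stem cell medium (n = 5 each). Paired differences were -0.01 in old and 0.01 in young stem cell medium and -0.06, -0.09 and -0.08 in old differentiation at 6, 18 and 48 h. In old stem cell medium the SE of this difference was 0.022, and an addition to the endogenous level within that error was not detectable. Pou5f1, the Oct4 gene, averaged 0.401 CPM with and 0.16 CPM without doxycycline in the same groups. An addition of that size to Sox2 would lie within the error, so this comparison could not show transcripts of the cassette Sox2. The effect of doxycycline in stem cell medium was also compared between ages. No member was called without animals (0% of tested genes, and 0 members with DESeq2) or with animals as blocks (3.43%). At an unadjusted p under 0.05 edgeR gave 1 member without animals, against 1516 of 17177 tested genes. With blocks it gave 5 members, against 3498 of 17177. With young replicate 5 left out of the blocked fit, 2 were called, Sox8 (-0.12, adjusted p = 0.0127) and Sox9 (-0.19, adjusted p = 0.00131).

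**Figure D5:**
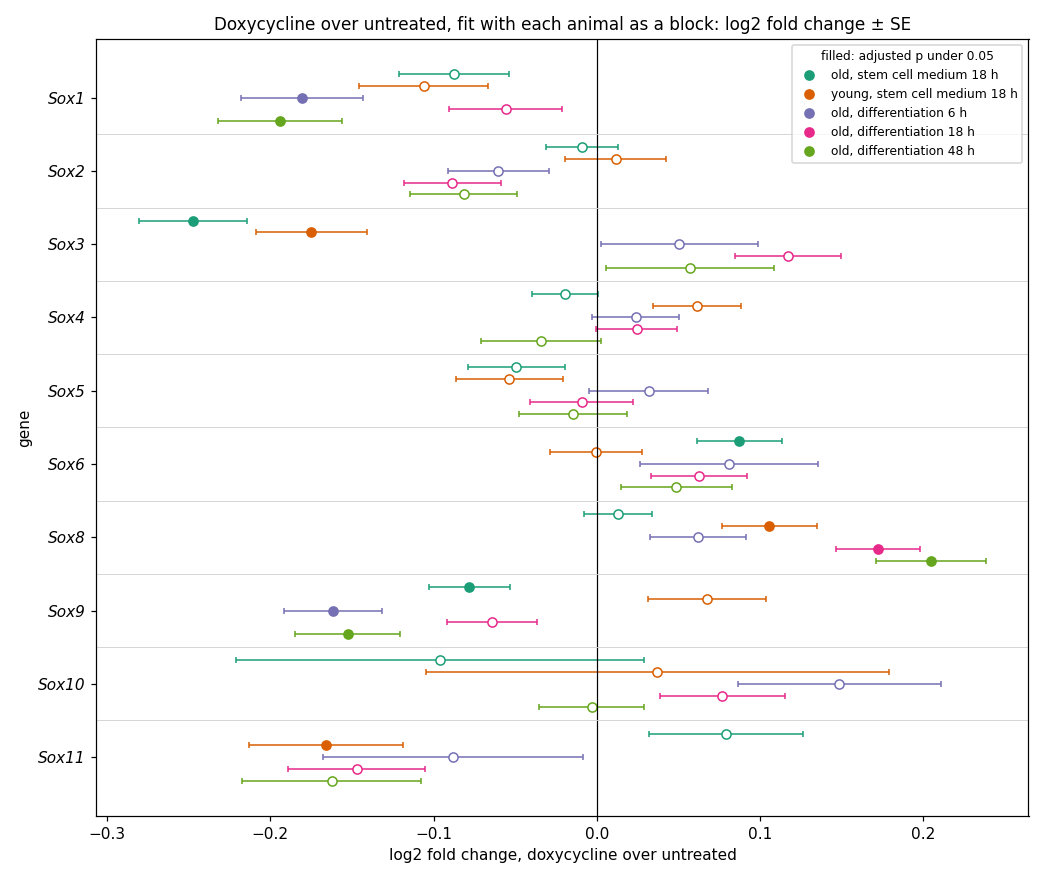
Log2 fold change of doxycycline over untreated cells from the fits with animals as blocks (points, bars ± 1 SE) for the 10 genes in 5 comparisons; filled points have an adjusted p under 0.05. Sox3 is filled in old and in young stem cell medium, at -0.25 and -0.17, and Sox8 is filled at 18 and 48 h of differentiation, at 0.17 and 0.20.

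Among themselves the 10 genes fell into few patterns over the 15 group means, given here as Pearson's r of log2(CPM + 1) with no test, since the groups share animals and media. Sox4 and Sox8 were the most alike (r = 0.97), then Sox3 and Sox4 (r = 0.94) and Sox9 and Sox10 (r = 0.93). Sox11 ran opposite to Sox10 (r = -0.96) and Sox9 (r = -0.93), and Sox1 and Sox5 were unrelated (r = -0.08). Over 11823 genes averaging 5 CPM or more, the genes most like Sox10 were Gpr17 (r = 0.996), Zdhhc1 and Dtx1 (both 0.995). Those most like Sox4 after Gm26735, which overlaps its exons on the opposite strand, were Acss1 and Nicn1 (both 0.997). Evi5l (0.993) and Asap3 (0.992) followed Sox8 after 4932443L11Rik (0.993). Sox11 was nearest to Sept11 (0.992), Spred2 (0.991) and Hectd2 (0.989), Sox5 to Maml2 (0.992), Sox9 to Pcdh10 (0.984), Sox3 to Bcl11a (0.983) and Sox6 to Gm14964 (0.982). The closest gene to Sox1 was Dab2 (0.955) and the closest to Sox2 was Pnpla2 (0.951).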

How the data were processed

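Primary neural stem cell cultures were read by stranded mRNA sequencing in 65 libraries of 15 groups, and each library comes from a separate animal within its group. The submitters' processing notes name mm10, DESeq2 1.40.1, Subread, SAMtools, STAR 2.7.10b and Trim Galore 0.6.6. The authors deposited counts per gene, which were used as deposited, and variance-stabilised values on the log2 scale, which served as an alternative. Among low counts, values of 2 (75644) were more frequent than values of 1 (19963). Of 31057 features, 30934 were named through GENCODE M21. Sequencing depth was 56.5 to 116.8 M counts, and the lowest value of a member was 0.348 CPM for Sox10, where counting error weighs most. No 2 libraries were identical.

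Each comparison was fitted on all genes of its own libraries with edgeR 4.0.16 in R 4.3.3, by the quasi-likelihood test after filterByExpr with a count minimum of 10, TMM scaling and a prior count of 1, with Benjamini-Hochberg adjustment over all tested genes. Levels compared between genes were divided by exon length. The code was tested on simulated data. Replicate numbers in the labels mark animals within an age. Over 20 comparisons libraries of the same animal deviated together from their group means (lowest r 0.226, medians 0.414 to 0.785). Between other animals the median was at most -0.18 and the highest r was 0.583. Deviations from a group's mean sum to 0 within the group, which by itself lowers r between other animals. Fits with the animal as a block are given where they change a call. The alternatives were DESeq2 1.42.0, its size factors, no count filter, limma 3.58.1 on the log2 values, sex as a covariate, the animal block and leaving out each library. Leaving out each animal from the blocked fits was added after the data were seen. The members and gene lists were chosen with earlier results of these data known. From each list, at most 2 risen and 2 fallen genes were named, those of largest change among called genes of at least 5 CPM, and for each member up to 3 genes most like it over group means.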

Additional observations from a re-analysis of the deposited data

Results flagged for a closer look

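In 150 sets of libraries, a gene in a group each, 5 held a library apart from the rest of its group, where chance alone sets about 1 in 20 apart. Sox2 stood at 337.1 CPM in replicate 3 of old cells with doxycycline after 6 h of differentiation, and at 319.4 to 322.1 CPM in the other libraries of that group. Sox5 stood at 71.8 CPM in replicate 4 of untreated old cells in stem cell medium, below the others at 76.2 to 77.1 CPM. In replicate 3 of untreated young cells at 6 h of differentiation Sox6 was at 231.8 CPM, below 279.6 to 297.6 CPM. Sox8 in replicate 2 of untreated old cells at 18 h of differentiation was at 617.8 CPM, below 654.9 to 661.8 CPM. Sox10 was at 71.3 CPM in replicate 4 of the same group, above 50.2 to 51.6 CPM.

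The response of Sox1 to 48 h of differentiation differed between the ages by the test of that difference, at -0.49 for old minus young cells on the log2 scale.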

How the results depend on the processing

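No called difference of a member turned its direction under any alternative. Of 300 differences and interactions each, 300 kept their side of the threshold with DESeq2's size factors, 293 with DESeq2 (7 gained), 298 with the deposited log2 values (Sox2 from 18 to 48 h in young and Sox9 in old cells lost) and 297 without a count filter (Sox6 from 18 to 48 h in young cells and Sox3 from 6 to 18 h in old differentiation and in stem cell medium lost), and so did 234 of 250 with the animal as a replicate block (16 gained), 49 of 50 with sex as a covariate and 2986 of 3050 with a library left out (13 gained, 51 lost). With the animal block, the members called for doxycycline numbered 3 in old and 3 in young stem cell medium and 2, 1 and 3 at 6, 18 and 48 h of differentiation, against 0 without it, and 1 against 0 for the interaction of medium and doxycycline. The block also added Sox11 and Sox1 from 18 to 48 h and Sox10 from 6 to 18 h in stem cell medium, and ended no call. Genes called for doxycycline numbered 1863 and 2260 in old and young stem cell medium and 625, 150 and 701 at 6, 18 and 48 h of differentiation with the block, against 3, 6, 5, 2 and 5 without. DESeq2 called 1 member at 18 h and 1 at 48 h for doxycycline, against 0, and 3 against 1 for the interaction of age and 48 h of differentiation, Sox4 and Sox9 being added. It also added Sox9 in stem cell medium and Sox11 at 48 h for age, and Sox10 from 6 to 18 h in stem cell medium. The age comparison in stem cell medium with doxycycline held 1 call with sex as a covariate, against 2. Leaving out a library or an animal gave 0 to 3 calls for doxycycline in old stem cell medium, 0 to 4 in young stem cell medium, and 0 to 2, 0 to 2 and 0 to 3 at 6, 18 and 48 h of differentiation. It gave 1 to 3 for age in stem cell medium, 1 to 2 with doxycycline and 1 to 2 at 18 h of differentiation. For the interactions it gave 0 to 1 for age at 18 h, 0 to 3 for age at 48 h, 0 to 2 for age with doxycycline and 0 to 1 for medium with doxycycline. The causes were not tested. Depth limits Sox10 in stem cell medium, at 0.348 to 3.06 CPM at 6 and 18 h.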
